A study of Homo sapiens and Mus musculus with 99 samples.

Results

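BAPTA-AM is a cell-permeant ester that is cleaved inside cells to BAPTA, a calcium chelator, so it binds calcium within the cytoplasm. The comparison described here set NCI-H292 cells that received Aeg-S/L together with BAPTA-AM against NCI-H292 cells that received Aeg-S/L alone. Its members were chosen by their treatment labels in one experiment, and they are 4 of the 99 samples of the series, 2 libraries in each group. The study examined how epithelial cells of the airway respond to extract of the mould Alternaria alternata and to pore-forming proteins, in mouse lung and in cultured lines. Aeg-S/L is the joined pair of the pore-forming proteins Aeg-S and Aeg-L. NCI-H292 is an established human epithelial line from a non-small cell lung cancer.

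All cells were grown in RPMI 1640 medium with serum, and RNA was taken 4 h after treatment. Besides the Aeg-S/L and Aeg-S/L+BAPTA-AM groups, the experiment held 2 mock libraries that received DPBS, a buffered saline, and 2 libraries that received Aeg-S/L with EGTA, a chelator that does not enter cells and binds calcium outside them. The matching experiment in NCI-H1437, another epithelial non-small cell lung cancer line, had the same 4 groups with 2 libraries each, and it served as a comparison. An earlier experiment in NCI-H292, with 2 DPBS libraries and 2 libraries given extract of the wild-type mould (ALT) for 4 h, was used to choose genes of the extract response. It also held 2 libraries with extract of aegs knockout mould and 2 with extract of aegl knockout mould. These entered its filter, scaling and estimate of spread, but not the contrast that chose the genes. Neither the doses, nor the vehicle of BAPTA-AM, nor the time at which it was added is stated in the sources read. No group in this experiment received BAPTA-AM without Aeg-S/L, so an effect of the chelator on the response to the pore and an effect of the chelator on cells as such cannot be told apart. The column names of the count table call the treated pair BAPTA and the table as a whole an ALT experiment, whereas the sample titles give Aeg-S/L+BAPTA-AM, and the titles were followed. The design text speaks of at least 2 biological replicates without saying how they were grown, so the p-values measure the spread between these libraries, which may be technical.

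A pore in the plasma membrane lets calcium flow into the cell down a steep gradient, and the influx is sensed by calmodulin, calcineurin and calcium-dependent kinases. Calcium entry is known to switch on immediate early genes, whose transcription needs no new protein, through CREB and serum response factor, and it feeds into the MAP kinase and NF-kB pathways. Airway epithelial cells respond to membrane damage by making chemokines, interleukin-1 cytokines and ligands of the EGF receptor.

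Promoters of 6 genes are shown as examples from gene groups described below. FOS and EGR1 are immediate early transcription factors, CXCL8 and CXCL2 are neutrophil-attracting chemokines, DUSP6 is a phosphatase of the kinase ERK, and CCNB1 is the cyclin of mitosis. Each run is the 250 bases before the annotated start, 5′ to 3′ on the gene's strand, from RefSeq on GRCh38.p14, and the genes were chosen after their values had been seen. Capitals mark matches on either strand to the core of the cAMP response element (TGACG), the AP-1 site (TGANTCA), the CArG box of serum response factor, an NF-kB site (GGNNTTTCC) or the CCAAT box (CCAAT), and no base in these 6 runs belongs to more than 1 match.
FOS, chr14:75278578-75278827, plus strand: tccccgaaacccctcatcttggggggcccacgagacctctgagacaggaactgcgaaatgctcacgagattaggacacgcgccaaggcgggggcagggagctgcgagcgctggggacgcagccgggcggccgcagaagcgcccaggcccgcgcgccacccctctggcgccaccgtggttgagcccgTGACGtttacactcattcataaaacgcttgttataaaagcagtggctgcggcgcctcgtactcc
EGR1, chr5:138465229-138465478, plus strand: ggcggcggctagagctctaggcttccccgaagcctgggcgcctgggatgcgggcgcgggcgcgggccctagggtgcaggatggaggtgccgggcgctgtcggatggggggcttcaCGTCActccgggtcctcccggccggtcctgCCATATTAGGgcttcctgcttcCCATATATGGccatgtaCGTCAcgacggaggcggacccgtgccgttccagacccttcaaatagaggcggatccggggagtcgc
CXCL8, chr4:73740319-73740568, plus strand: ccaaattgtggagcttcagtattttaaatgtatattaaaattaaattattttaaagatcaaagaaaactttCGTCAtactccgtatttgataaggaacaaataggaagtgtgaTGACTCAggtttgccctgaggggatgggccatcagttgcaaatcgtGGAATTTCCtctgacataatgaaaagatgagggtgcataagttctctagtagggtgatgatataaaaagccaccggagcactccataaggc
CXCL2, chr4:74099196-74099445, minus strand: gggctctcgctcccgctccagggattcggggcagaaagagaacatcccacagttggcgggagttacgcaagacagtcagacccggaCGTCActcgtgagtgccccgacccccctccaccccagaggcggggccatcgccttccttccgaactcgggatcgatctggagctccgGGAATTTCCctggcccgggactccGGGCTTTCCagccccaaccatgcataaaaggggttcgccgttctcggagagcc
DUSP6, chr12:89352502-89352751, minus strand: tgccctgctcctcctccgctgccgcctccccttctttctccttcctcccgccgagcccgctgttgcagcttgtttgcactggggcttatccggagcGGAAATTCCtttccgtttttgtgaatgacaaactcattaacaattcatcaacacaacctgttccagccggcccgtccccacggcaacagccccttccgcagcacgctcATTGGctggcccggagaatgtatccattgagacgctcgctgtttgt
CCNB1, chr5:69166900-69167149, plus strand: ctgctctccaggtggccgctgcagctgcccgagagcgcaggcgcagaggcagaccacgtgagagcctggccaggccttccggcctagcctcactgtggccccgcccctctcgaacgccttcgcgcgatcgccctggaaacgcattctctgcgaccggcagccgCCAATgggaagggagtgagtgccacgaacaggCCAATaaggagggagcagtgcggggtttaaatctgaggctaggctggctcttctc

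The core of the cAMP response element, which CREB and ATF proteins bind, lay in 13 of 19 promoters of immediate early transcription factors (68.4%) and in 21.7% of 27305 promoters of the same length. NF-kB matches lay in 9 of 13 chemokine promoters (69.2%) and 8 of 15 promoters of NF-kB feedback genes (53.3%), against 5.48% of all promoters. The CCAAT box lay in all 11 mitosis promoters with a sequence and in 33% of all promoters. Of 9 promoters of ERK feedback and output genes, 1 held a CCAAT box (11.1%) and 2 held an NF-kB match (22.2%). The core of the cAMP response element lay in 3 of 13 chemokine promoters (23.1%), near its share over all promoters. AP-1 matches lay in 3 of 13 chemokine promoters and 5 of 16 cytokine promoters (31.2%), against 6.6% of all promoters, and CArG boxes in 2 of 19 immediate early promoters, against 1.14%. A match describes the letters of the window and is not evidence that a factor binds there.

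The 8 libraries held 32425310 to 38389030 counts, and 16380 genes passed the filter on low counts and were tested. Levels are given below in CPM (counts-per-million, relative to the scaled library total) and serve to compare 1 gene across libraries and not genes with each other. Differences are log2 fold changes with their standard errors (SE), and a gene was called when edgeR's quasi-likelihood test gave a Benjamini-Hochberg adjusted p under 0.05. Epithelial keratins and EPCAM were present throughout: EPCAM stood between 228 and 268 CPM in the 8 libraries. The fibroblast genes DCN, LUM and COL3A1 had 0 counts, whereas COL1A1, at 28.2 to 46.1 CPM, and the endothelial cadherin CDH5, at 52.3 to 75.1 CPM, were expressed. The replicate libraries differed more than counting noise allows in each group, with a chi-square per degree of freedom of 4.02 in the BAPTA-AM pair and 4.58 in the Aeg-S/L pair. In bulk RNA, fewer cells of a kind and less RNA per cell cannot be told apart.

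BAPTA-AM changed much of the transcriptome of cells exposed to Aeg-S/L. Of the genes tested, 6210 were called (37.9%), 2881 of them higher (17.6%) and 3329 lower (20.3%) than with Aeg-S/L alone. Changes of at least 2-fold were fewer, with 573 genes higher (3.5%) and 913 lower (5.57%), and the median over all genes was 0.02. Against the mock, Aeg-S/L alone gave 7081 calls (43.2%), and Aeg-S/L with BAPTA-AM still gave 6000 (36.6%). These comparisons share libraries, so their counts are set side by side and were not tested against each other.

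Immediate early transcription factors, the first genes that a stimulated cell transcribes, had the lowest median of the lists examined. All 26 genes were lower with BAPTA-AM, where 20.3% of all genes were, and their median log2 change was -4.45 against 0.02 over all genes. FOS, an AP-1 subunit (ENSG00000170345.5, hg19 chr14:75745477-75748933), stood at 3.84 and 5.08 CPM in the DPBS libraries, 2326 and 2271 with Aeg-S/L, and 10.2 and 11.2 with BAPTA-AM. The Aeg-S/L pair stood far above every other library and the groups did not overlap, and FOS fell by 7.74 ± 0.13 (SE; adjusted p = 2.42e-19), a 214-fold difference. FOSB, another AP-1 subunit, went from 2851 and 2815 CPM with Aeg-S/L to 2.39 and 2.41 with BAPTA-AM, below its 5.00 and 3.60 in DPBS. Its change, -10.20 ± 0.20 (adjusted p = 2.76e-18), was the largest decrease among the genes named by size.

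EGR1, a zinc finger factor of growth and injury signalling, stood at 7.06 and 8.63 CPM in DPBS, 2154 and 2108 with Aeg-S/L and 19.4 and 17.0 with BAPTA-AM. It fell by 6.87 ± 0.18 (adjusted p = 2.18e-16) and remained 1.21 above DPBS. ATF3, a stress-induced factor of the ATF family, fell from 2273 and 2254 CPM to 19.99 and 20.8, and DPBS cells had 38.5 and 41.9. Both BAPTA-AM libraries of ATF3 thus lay under both mock libraries (log2 difference -0.98, adjusted p = 1.2e-07). The orphan nuclear receptors, which act without a known ligand, followed different courses against the mock. NR4A1 stood at 76.1 and 79.6 CPM with BAPTA-AM, above its 37.2 and 32.9 in DPBS, while NR4A2 stood at 11.3 and 8.89, below its 28.3 and 29.2. Compared with Aeg-S/L, NR4A1 fell by 4.70, NR4A2 fell by 6.36 and NR4A3 fell by 6.43.

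JUN, the main partner of FOS, stood at 854 and 812 CPM with Aeg-S/L and at 31.9 and 36.5 with BAPTA-AM, close to its 23.0 and 27.1 in DPBS. JUND fell from 572 and 560 CPM to 102 in each BAPTA-AM library, below the 186 and 174 of DPBS. FOSL2 and JUNB had not risen with Aeg-S/L, yet both were lower with BAPTA-AM, by 1.42 ± 0.06 and 0.44 ± 0.07. FOSL2 stood at 240 and 231 CPM in DPBS, 234 and 227 with Aeg-S/L and 86.2 and 86.0 with BAPTA-AM. KLF4, a factor of epithelial barrier genes, fell from 136 and 134 CPM to 2.66 and 2.93, again under the 7.68 and 7.87 of DPBS. SRF, which binds the CArG box, was lower by 1.03 ± 0.06.

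EGR2, EGR3, EGR4, ARC and IER3 were called lower too, but on few counts in the BAPTA-AM pair. EGR3 had 490 counts over the Aeg-S/L pair and 6 over the BAPTA-AM pair, a ratio of 96.8 with a 95% counting interval of 44.2 to 265. For EGR2 the counts were 1127 and 8, a ratio of 167 with an interval of 84.5 to 388. These intervals cover counting error only.

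MYC was the exception among the list, since most of its increase was still present. It stood at 43.4 and 37.7 CPM in DPBS, 209 and 207 with Aeg-S/L and 177 and 162 with BAPTA-AM. The drop of 0.29 ± 0.10 passed the test (adjusted p = 0.032) but not in DESeq2 (adjusted p = 0.219). Against the mock, MYC with BAPTA-AM was 2.07 higher. Over the whole list, 24 of 26 genes had risen with Aeg-S/L against DPBS (22.1% of all genes were called higher there). With BAPTA-AM, 8 of 26 were above DPBS and 9 below, where 17.6% and 19% of all genes were, and the median stood at 0.11.

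**Figure D1:**
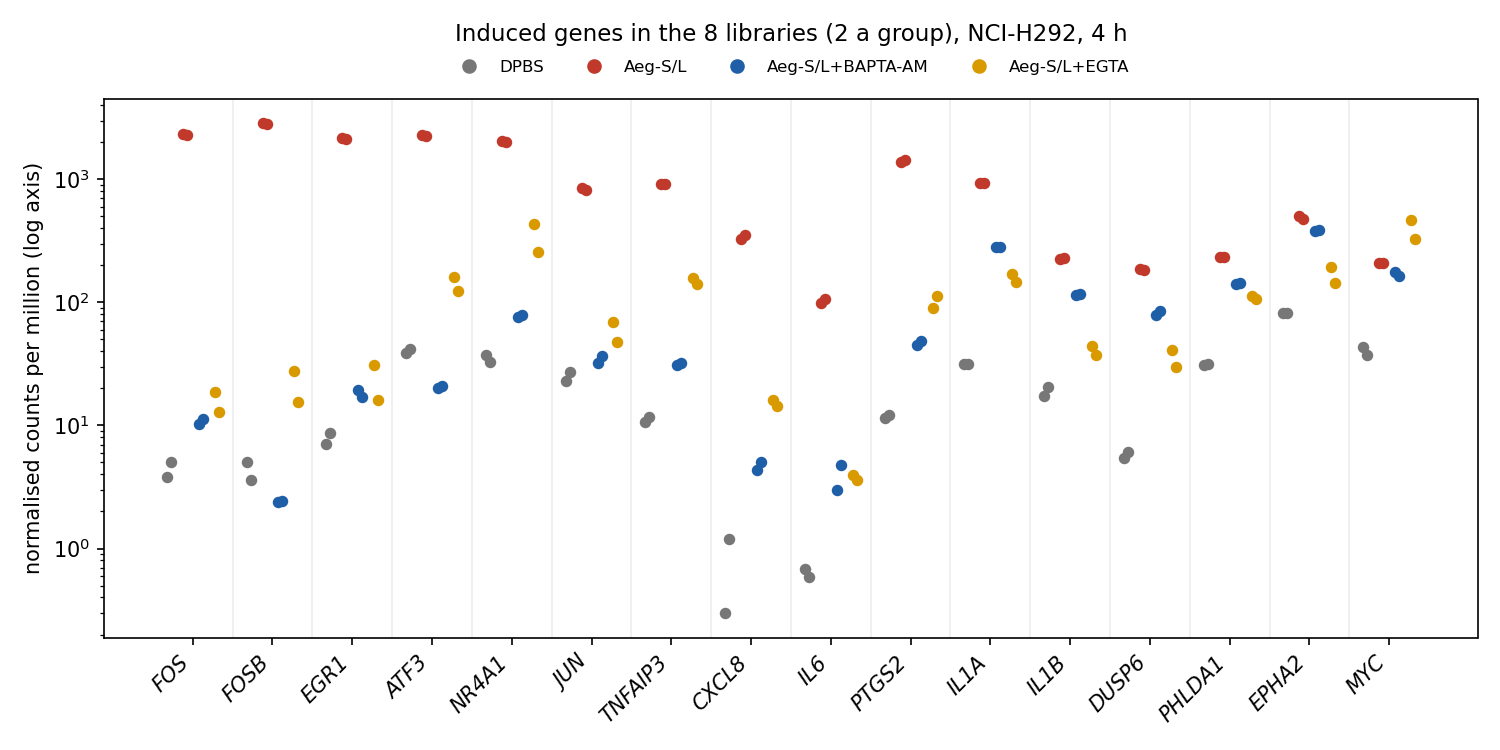
Normalised CPM on a log axis for 16 induced genes in the 8 NCI-H292 libraries, 1 point per library and 2 libraries a group. FOS, FOSB, EGR1 and ATF3 lie near the DPBS points with BAPTA-AM, whereas IL1A, DUSP6, PHLDA1, EPHA2 and MYC stay well above them.

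Targets of calcineurin and CREB, the calcium-activated phosphatase and the cAMP- and calcium-activated factor, were lower in 7 of 8 tested cases. The share over all genes was 20.3%, and the list median was -1.45. RCAN1, a feedback inhibitor of calcineurin that is widely read as its reporter, stood at 34.5 and 30.6 CPM in DPBS, 168 and 167 with Aeg-S/L and 40.4 and 36.7 with BAPTA-AM. It fell by 2.12 ± 0.08 (adjusted p = 3.1e-14) and ended 0.25 above DPBS. SIK1, a kinase that restrains CREB coactivators, fell from 2595 and 2625 CPM to 543 and 533, below the 817 and 786 of DPBS. PER1, a clock gene that CREB induces, fell by 2.37 and likewise ended below DPBS. PDE4B and PDE4D, which degrade cAMP, fell by 1.14 and 1.28. CREM, itself a CREB-family gene, did not pass the test and stood at 10.7 and 9.35 CPM with Aeg-S/L and 9.02 and 9.81 with BAPTA-AM. All 4 tested phosphatases of JNK and p38 type kinases were lower: DUSP1 by 3.07, DUSP10 by 2.03, DUSP8 by 1.73 and DUSP16 by 0.96.

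Feedback and output genes of the ERK pathway mostly stayed above DPBS. Of 13 tested genes, 12 were still above DPBS with BAPTA-AM (17.6% of all genes were), with a median of 1.97. With Aeg-S/L alone 13 were above DPBS (22.1% of all genes were), with a median of 1.84. Between the chelator and Aeg-S/L alone, 8 were lower and 2 higher, where 20.3% and 17.6% of all genes were, and the median was -0.34. DUSP6, which dephosphorylates ERK in the cytoplasm (ENSG00000139318.7, hg19 chr12:89741009-89747048), stood at 5.39 and 6.03 CPM in DPBS, 188 and 184 with Aeg-S/L and 79.6 and 84.8 with BAPTA-AM. The BAPTA-AM pair lay between the other groups, without overlap: DUSP6 fell by 1.17 ± 0.09 (adjusted p = 5.26e-09) and remained 3.85 above DPBS.

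DUSP4, the nuclear ERK phosphatase, stood at 261 and 254 CPM with Aeg-S/L and 219 and 221 with BAPTA-AM, against 56.0 and 56.1 in DPBS. EPHA2, an ephrin receptor that ERK output raises, stood at 500 and 475 CPM with Aeg-S/L and 384 in each BAPTA-AM library, against 82.0 and 82.5 in DPBS. PHLDA1 went from 235 CPM in each Aeg-S/L library to 141 and 143, with 30.7 and 31.7 in DPBS. The ETS factors ETV4 and ETV5, at -0.11 ± 0.08 and -0.19 ± 0.08, did not pass the test. The call for EPHA2 was lost in DESeq2 (adjusted p = 0.0525), and the call for DUSP4 was lost without 1 library (adjusted p up to 0.0739).

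DUSP5, the phosphatase of nuclear ERK that is also an early gene, fell further, by 2.49 ± 0.11, from 249 and 245 CPM to 46.1 and 42.0. CCND1, the cyclin of the G1 phase, was higher with BAPTA-AM, at 623 and 612 CPM against 442 and 460 with Aeg-S/L and 301 and 314 in DPBS. SPRY1, a Sprouty inhibitor of receptor signalling, was higher at 7.12 and 5.24 CPM against 2.85 and 3.16. That increase, 1.04 ± 0.26 (adjusted p = 0.00318), was lost when the first BAPTA-AM library was left out (0.80, adjusted p = 0.0833).

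NF-kB feedback genes were lower in 12 of 17 cases, where 20.3% of all genes were, with a median of -0.60. TNFAIP3, the A20 protein that ends NF-kB signalling, stood at 10.7 and 11.8 CPM in DPBS, 918 and 920 with Aeg-S/L and 31.0 and 32.3 with BAPTA-AM. It fell by 4.86 ± 0.07 (adjusted p = 9.58e-20) and remained 1.49 above DPBS. NFKBIA, the inhibitor that holds NF-kB in the cytoplasm, fell from 590 and 578 CPM to 53.6 and 53.5, with 37.7 and 37.4 in DPBS. REL, an NF-kB subunit, fell from 70.0 and 67.0 CPM to 8.01 and 8.94, which is under its 25.3 and 25.99 in DPBS.

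Other members stayed close to the level set by Aeg-S/L. NFKB2, a subunit of the alternative pathway, stood at 101 and 99.4 CPM in DPBS, 196 and 205 with Aeg-S/L and 207 and 210 with BAPTA-AM, and it did not pass the test against Aeg-S/L (0.05 ± 0.06). RELB, its partner, was at -0.18 ± 0.10 and did not pass either. BIRC3, an inhibitor of apoptosis, was called lower by 0.34 ± 0.10 and remained 1.36 above DPBS, and that call was lost without 1 library (adjusted p up to 0.0806). Against DPBS, 9 of the 17 genes were higher with BAPTA-AM and 3 lower (17.6% and 19% of all genes were), with a median of 0.34. Aeg-S/L alone had given 13 higher (22.1% of all genes were) and a median of 1.30.

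Chemokines, the secreted proteins that draw leukocytes, were lower in 8 of 11 tested cases (20.3% of all genes were), with a median of -3.21. CXCL8, the main neutrophil attractant (hg19 chr4:74606223-74609433), stood at 0.298 and 1.20 CPM in DPBS, 326 and 354 with Aeg-S/L and 4.37 and 5.09 with BAPTA-AM. It fell by 6.16 ± 0.14 (adjusted p = 1.95e-17), a 71.6-fold difference, and remained 2.63 above DPBS. The 3 other ligands of the CXCR2 receptor in the list followed the same course: CXCL1 fell by 3.08, CXCL2 by 4.82 and CXCL3 by 4.48, and each stayed above DPBS.

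CCL20, which attracts dendritic cells and Th17 cells, had 16.3 and 14.2 CPM with Aeg-S/L and 1.25 and 0.373 with BAPTA-AM. CXCL10 and CXCL11, ligands of the T-cell receptor CXCR3, ended near DPBS: CXCL10 had 4.65 and 4.17 CPM with Aeg-S/L, 0.0815 and 0.149 with BAPTA-AM and 0.179 and 0.0837 in DPBS. CXCL16, a membrane-bound chemokine, fell by 0.54 ± 0.06. CCL26, the eosinophil attractant eotaxin-3, stayed at 0.976 to 1.43 CPM in the DPBS, Aeg-S/L and BAPTA-AM libraries and did not pass the test.

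Cytokines were lower in 14 of 18 tested cases, where 20.3% of all genes were, with a median of -1.35. They differed in how much of the increase was left. IL6, an acute-phase cytokine, stood at 0.685 and 0.586 CPM in DPBS, 99.05 and 106 with Aeg-S/L and 2.99 and 4.75 with BAPTA-AM (log2 change -4.72 ± 0.14, adjusted p = 1.87e-15). IL1A, an alarmin that epithelial cells release when damaged, stood at 31.6 and 31.5 CPM in DPBS, 940 in each Aeg-S/L library and 284 and 281 with BAPTA-AM. It fell by 1.73 ± 0.06 (adjusted p = 1.66e-14), a 3.33-fold difference, and was still 3.16 above DPBS. For both genes the BAPTA-AM pair lay between the other groups without overlap, and IL6 was 2.61 above DPBS.

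IL1B, the secreted interleukin-1, kept more of its rise: 17.5 and 20.5 CPM in DPBS, 223 and 230 with Aeg-S/L and 116 in each BAPTA-AM library. LIF, an IL-6 family cytokine, fell by 2.43 and remained 1.85 above DPBS. IL24, of the IL-10 family, and IL1RN, the natural antagonist of interleukin-1, ended below the mock: IL24 stood at 13.8 and 14.0 CPM with BAPTA-AM against 55.1 and 49.2 in DPBS, and IL1RN at 13.4 and 13.8 against 38.8 and 36.0. Among the type 2 alarmins of the airway, IL33 stood at 4.71 and 4.14 CPM with Aeg-S/L and 4.29 and 3.68 with BAPTA-AM and did not pass the test (-0.15 ± 0.26, adjusted p = 0.689). TSLP was under 1 CPM in all 8 libraries.

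PTGS2, the inducible enzyme of prostaglandin synthesis, stood at 11.4 and 12.1 CPM in DPBS, 1394 and 1448 with Aeg-S/L and 44.6 and 48.5 with BAPTA-AM. It fell by 4.93 ± 0.09 (adjusted p = 6e-19) and remained 1.98 above DPBS. The constitutive enzyme PTGS1 did not pass the test (-0.11 ± 0.08). Of 7 ligands of the EGF receptor, HBEGF and TGFA were called, both lower, where 37.9% of all genes were called and 20.3% were lower. HBEGF went from 300 and 306 CPM to 80.6 and 79.5, with 8.52 and 9.32 in DPBS. TGFA fell by 0.57 ± 0.07 and stayed 1.11 above DPBS.

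The response to the mould extract was followed through 200 risen and 200 fallen genes, chosen with ALT against DPBS in the earlier NCI-H292 experiment. They had the smallest p in edgeR among genes called there with at least a 2-fold change. The libraries of that experiment are not part of the present comparison. In that experiment, 11.6% of genes were called higher and 11.3% lower. Of the 200 risen genes, 186 were lower with BAPTA-AM than with Aeg-S/L alone and 3 were higher. Over all genes, 20.3% were lower and 17.6% higher. The median of the risen genes was -2.11 with quartiles of -3.28 and -1.12. With Aeg-S/L alone all 200 had been above DPBS (22.1% of all genes were), with a median of 2.37. With BAPTA-AM the median was 0.43, with 118 genes called above DPBS and 43 below, where 17.6% and 19% of all genes were.

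Of the risen genes, 195 were at least 2-fold higher with Aeg-S/L than in DPBS, and for these the share of the log2 increase that was still present with BAPTA-AM was computed. It was below 0 in 57 genes, which therefore lay under DPBS, between 0 and 25% in 56, 25 to 50% in 39, 50 to 75% in 20, 75 to 100% in 18, and at or above 100% in 5. These are shares of a log2 change, and the share of the rise in CPM can be far smaller. FOS kept 14.0% of its log2 increase, EGR1 14.9%, PTGS2 28.7% and CXCL8 29.9%. Mean CXCL8 nevertheless stood at 0.749 CPM in DPBS, 340 with Aeg-S/L and 4.73 with BAPTA-AM. The shares that follow are on the same log2 scale. CXCL1 and the matrix protein gene CCN1 kept 52.1% and 51.9%, and IL1A and HBEGF 64.6% and 62.2%. Among the genes that kept most were MYC at 87.6%, EPHA2 at 86.6%, tissue factor F3 at 88.5%, DUSP4 at 89.7% and the growth factor gene PDGFB at 94.1%.

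The 5 genes at or above 100% were ZNF692, KRT80, HAS3, ARHGAP40 and RAPGEF3. HAS3, which makes hyaluronan, stood at 24.3 and 22.2 CPM in DPBS, 142 and 136 with Aeg-S/L and 175 and 166 with BAPTA-AM (log2 change 0.30, adjusted p = 0.00155). The calls for ZNF692 and KRT80 were lost under other settings. At the other end RRAD, a small GTPase that restrains calcium channels, had a share of -84.2%: it stood at 6.02 and 4.61 CPM in DPBS, 59.7 and 56.9 with Aeg-S/L and 0.869 and 0.547 with BAPTA-AM.

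**Figure D2:**
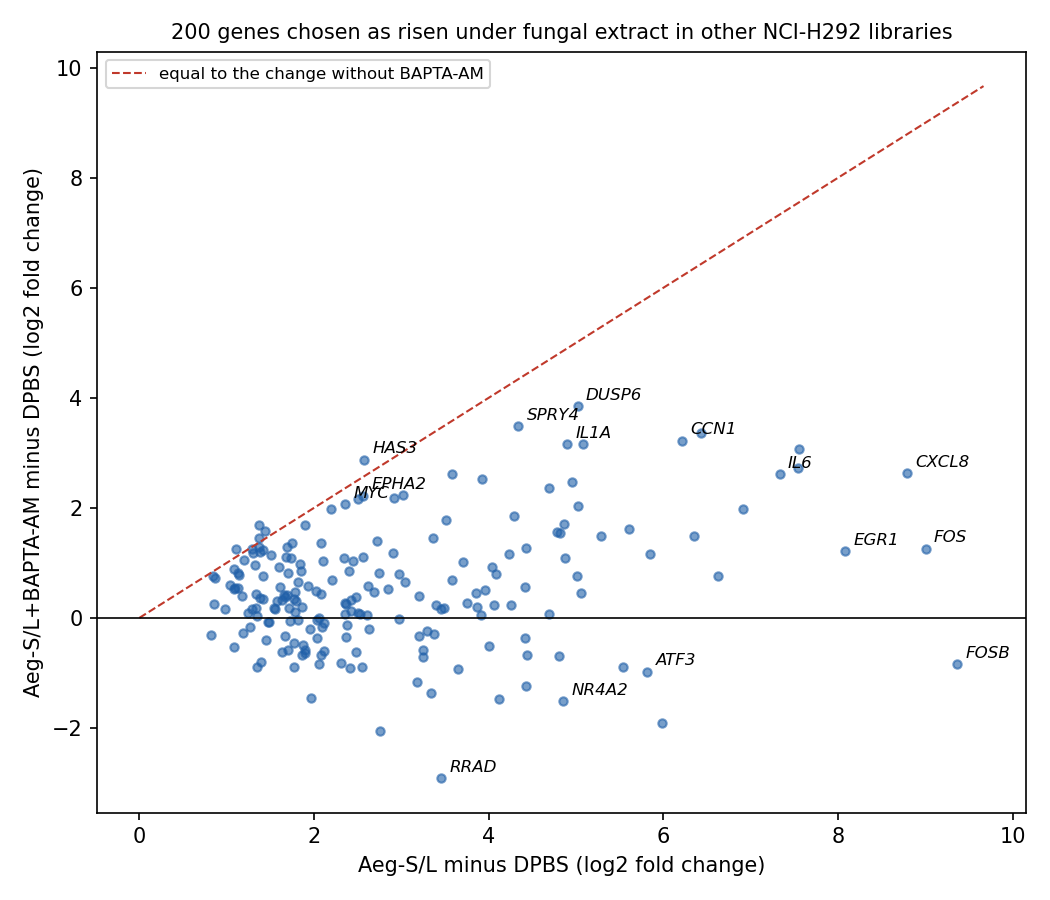
Log2 change against DPBS of the 200 risen genes of the mould extract response, which were chosen by smallest p. Aeg-S/L alone is on the x axis and Aeg-S/L with BAPTA-AM on the y axis, with 1 point per gene. A dashed line marks where both are equal. Most points lie under the line, 58 lie below 0 on the y axis, and a smaller group that includes MYC, EPHA2 and DUSP4 lies close to the line; both axes share the DPBS libraries.

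Genes that had fallen with the extract moved the other way, and less far. Of the 200, 112 were higher with BAPTA-AM than with Aeg-S/L and 37 lower, where 17.6% and 20.3% of all genes were, with a median of 0.49. With 200 fallen genes chosen in NCI-H1437 instead, 74 were higher and the median was 0.435. The genes chosen in the earlier NCI-H292 experiment mostly stayed below the mock. Their median against DPBS was -1.48 with Aeg-S/L and -0.95 with BAPTA-AM. With BAPTA-AM, 165 were still called below DPBS, where 19% of all genes were.

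Cell cycle genes were higher than with Aeg-S/L, and some stayed below the mock. Of 12 mitosis genes, all had been lower than DPBS with Aeg-S/L (21.1% of all genes were). With BAPTA-AM 11 were higher than with Aeg-S/L (17.6% of all genes were), with a median of 0.49. Against the mock, 4 of the 12 were still called below DPBS with BAPTA-AM and 1 above (19% and 17.6% of all genes were), with a median of -0.09. CCNA2, the cyclin of S and G2 phase, stood at 192 and 187 CPM in DPBS, 80.5 and 80.7 with Aeg-S/L and 177 and 174 with BAPTA-AM. The kinase AURKA went from 109 and 108 CPM to 214 and 207, against 247 and 234 in DPBS. MKI67, the proliferation antigen, rose from 219 and 242 CPM to 379 and 403, still under its 630 and 706 in DPBS (log2 change against DPBS -0.77, adjusted p = 1.03e-08). CCNB1, the mitotic cyclin whose promoter is printed above, rose by 0.25 ± 0.05. Of 12 DNA replication genes, 9 rose against Aeg-S/L, where 17.6% of all genes did, with a median of 0.32. PCNA, the polymerase clamp, went from 107 and 108 CPM to 166 and 171, against 178 and 172 in DPBS.

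Interferon-stimulated genes were higher in 7 of 13 tested cases and lower in 1, where 17.6% and 20.3% of all genes were. Their median was 0.64. IFIT3, an antiviral protein gene, stood at 17.8 and 16.9 CPM in DPBS, 4.52 and 5.26 with Aeg-S/L and 16.8 and 15.1 with BAPTA-AM. MX1 stood at 30.0 and 25.99 CPM with BAPTA-AM, above both other groups. IRF1, a transcription factor of interferon responses, was the one called lower, from 226 and 209 CPM to 70.6 and 66.1.

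Targets of NRF2, the factor of the oxidant response, did not come back. Of 12, 11 were below DPBS with Aeg-S/L and 11 with BAPTA-AM, where 21.1% and 19% of all genes were, with medians of -0.74 and -1.10. Between BAPTA-AM and Aeg-S/L alone, 6 of the 12 were lower, 0 were higher and 6 were not called. HMOX1, which degrades haem, stood at 77.2 and 79.8 CPM in DPBS, 2.92 and 2.87 with Aeg-S/L and 2.17 and 1.86 with BAPTA-AM. OSGIN1 stood at 73.9 and 69.8, then 8.50 and 7.36, then 8.01 and 9.29 CPM. TXNRD1, thioredoxin reductase, fell further with the chelator, from 492 and 500 CPM to 246 and 250. Of 17 cholesterol synthesis genes, 5 were higher and 5 lower than with Aeg-S/L, where 17.6% and 20.3% of all genes were: MSMO1 rose by 0.54 ± 0.07, while INSIG1, which senses sterols, fell by 1.09 ± 0.08.

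**Figure D3:**
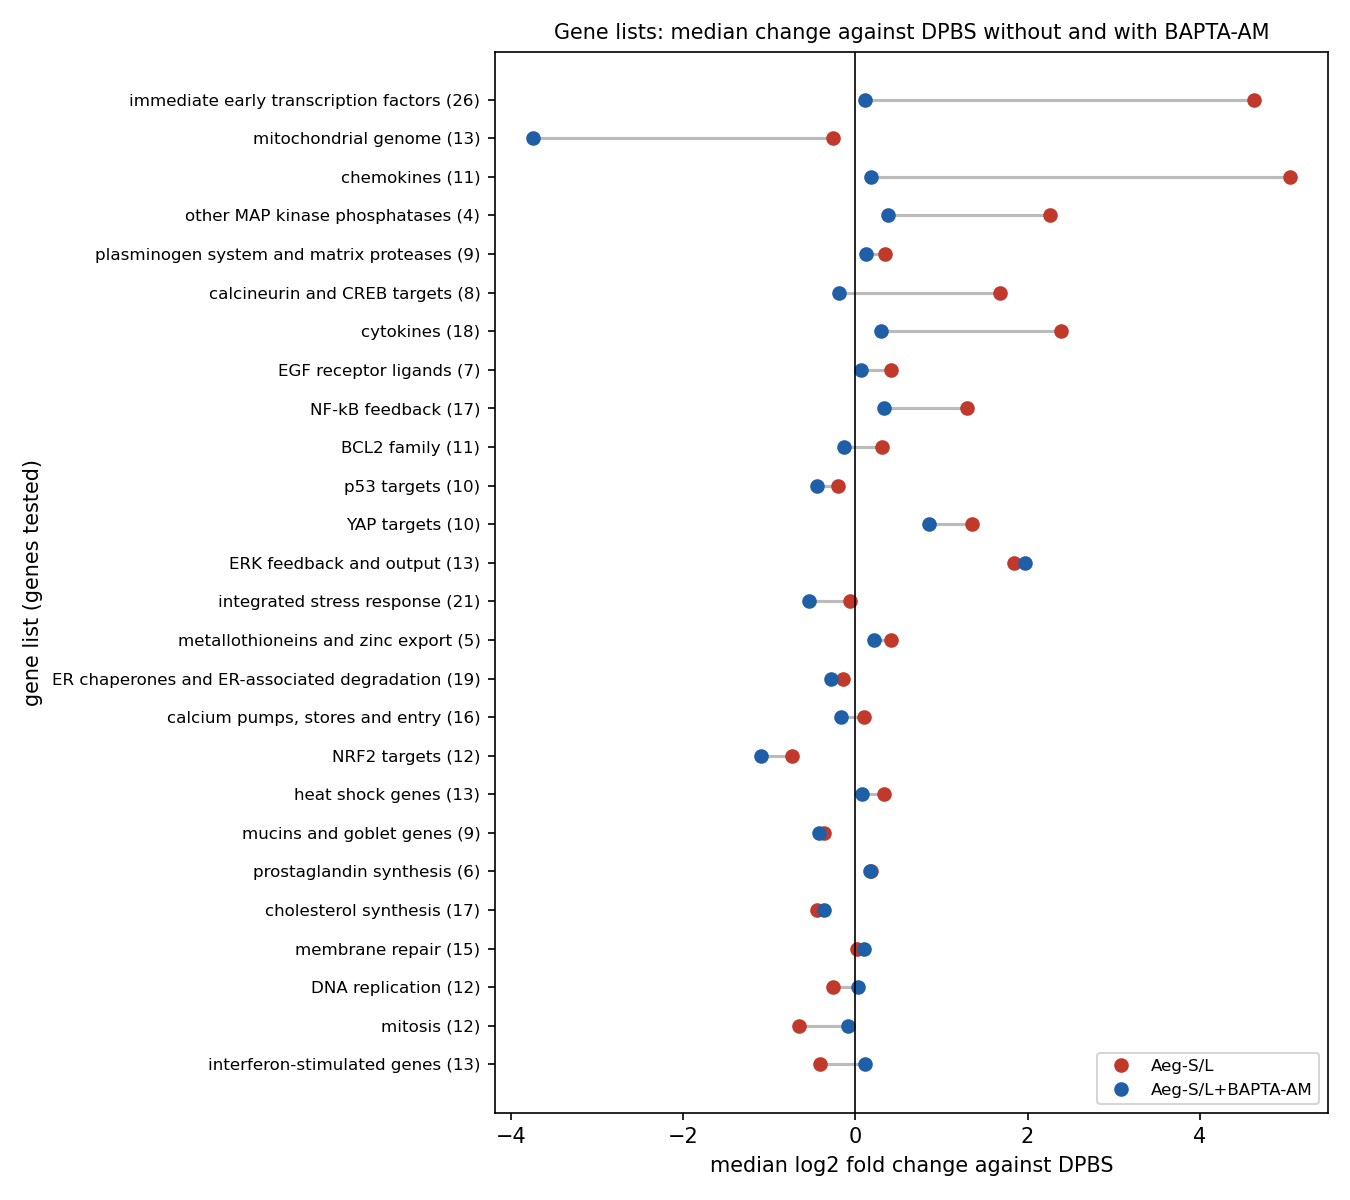
Median log2 change against DPBS of 26 gene lists in NCI-H292, with Aeg-S/L alone in red and with Aeg-S/L and BAPTA-AM in blue. Immediate early genes go from 4.63 to 0.11, ERK feedback genes from 1.84 to 1.97, and the mitochondrial genome goes from -0.26 to -3.75; both medians share the DPBS libraries.

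The transcripts of the mitochondrial genome had the lowest median against DPBS of the lists examined. All 13 protein-coding genes were lower than with Aeg-S/L and lower than in DPBS, with medians of -3.60 and -3.75. The shares over all genes were 20.3% and 19%. MT-CO3, a subunit of cytochrome oxidase, stood at 1230 and 1552 CPM in DPBS, 1249 and 1071 with Aeg-S/L and 66.3 and 72.8 with BAPTA-AM (log2 change -4.06 ± 0.14, adjusted p = 6.73e-15). MT-ND4, a subunit of complex I, stood at 3684 and 4423, then 3539 and 2922, then 282 and 321 CPM. The large ribosomal RNA MT-RNR2 had risen with Aeg-S/L, from 936 and 985 CPM to 2537 and 2494, and stood at 102 and 111 with BAPTA-AM.

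Mitochondrial counts made up 0.19% and 0.217% of the BAPTA-AM libraries, against 2.05% and 1.82% with Aeg-S/L, 1.4% and 1.06% with EGTA and 2.09% and 2.41% in DPBS. The BAPTA-AM pair therefore stood apart from the other 6 libraries of the experiment. Leaving the mitochondrial genes out before scaling, and so out of the tests as well, gave 6208 calls. The 6210 calls of the main fit include the 16 genes of the mitochondrial genome that were tested, all of them lower. Nuclear genes of mitochondrial transcription and RNA handling, a list added after values had been seen, had 2 of 11 members higher and 4 lower, where 17.6% and 20.3% of all genes were, and a median of 0.01. TFAM, which packages mitochondrial DNA and starts its transcription, fell by 0.39 ± 0.07, and POLRMT, the mitochondrial RNA polymerase, did not pass the test (0.10 ± 0.06).

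CYP1A1, a cytochrome P450 and the classic target of the aryl hydrocarbon receptor, was nearly lost. It stood at 324 and 317 CPM in DPBS, 245 and 249 with Aeg-S/L and 0.543 and 1.09 with BAPTA-AM, and it fell by 8.21 ± 0.14 (adjusted p = 3.33e-19), a 296-fold difference. The EGTA libraries were also low, at 4.58 and 6.27 CPM. CYP1B1 stood at 106 and 100 CPM in DPBS, 20.2 and 20.4 with Aeg-S/L and 2.31 and 1.51 with BAPTA-AM. Of 8 tested genes in an aryl hydrocarbon receptor list added after values had been seen, 5 were lower with BAPTA-AM and 7 were below DPBS. Over all genes, 20.3% were lower and 19% were below DPBS. TIPARP, another target, had risen with Aeg-S/L and fell by 3.54 ± 0.06 to 84.0 and 78.5 CPM, near its 101 and 91.5 in DPBS.

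In the integrated stress response, 13 of 21 genes were lower than with Aeg-S/L and 3 higher (20.3% and 17.6% of all genes were). Against DPBS, 14 were lower and 1 higher (19% and 17.6% of all genes were). PPP1R15A, the phosphatase subunit that restarts translation, fell from 2090 and 2037 CPM to 60.3 and 59.3, with 89.3 and 101.5 in DPBS. DDIT3, the CHOP factor, stood at 3.07 and 3.28 CPM with BAPTA-AM, against 11.4 and 9.77 in DPBS and 16.4 and 18.0 with Aeg-S/L. TRIB3 was among the 3 that rose, by 0.61 ± 0.10.

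Among 11 tested BCL2 family genes, 5 were lower than with Aeg-S/L and 1, BCL2L1, the anti-apoptotic BCL-XL, was higher. Of all genes, 20.3% were lower and 17.6% higher. Against DPBS, 4 of the 11 were lower and 3 higher, where 19% and 17.6% of all genes were. The pro-apoptotic BCL2L11 (BIM) stood at 59.5 and 50.5 CPM in DPBS, 62.6 and 58.0 with Aeg-S/L and 17.9 and 15.1 with BAPTA-AM. MCL1, which protects from apoptosis, had risen to 1585 and 1602 CPM and returned to 286 and 274, close to its 311 and 304 in DPBS. BMF, another pro-apoptotic member, was already low with Aeg-S/L, at 2.53 and 2.81 CPM, and was lower again with BAPTA-AM, at 0.978 and 1.44. Of 10 p53 targets, 6 were lower than with Aeg-S/L and 2 higher, where 20.3% and 17.6% of all genes were. CDKN1A, the p21 inhibitor of the cell cycle, stood at 201 and 190 CPM with BAPTA-AM. It had 463 and 467 with Aeg-S/L and 523 and 542 in DPBS.

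**Figure D4:**
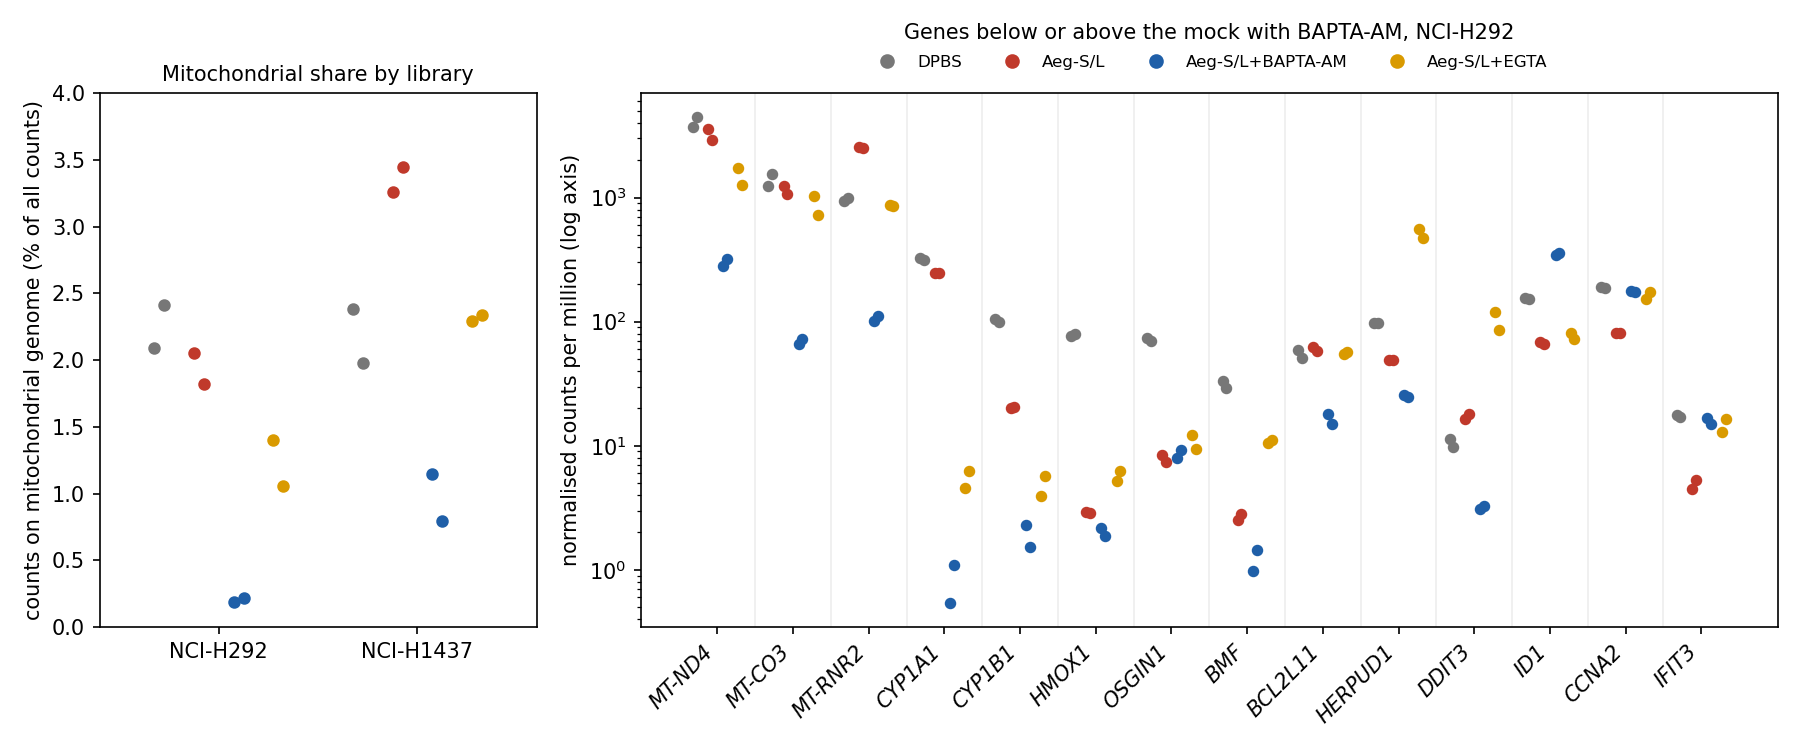
Left, the mitochondrial share of all counts in percent by library in NCI-H292 and NCI-H1437; right, normalised CPM on a log axis for 14 genes in NCI-H292, 1 point per library and 2 a group. The BAPTA-AM libraries hold 0.19% and 0.217% mitochondrial counts in NCI-H292 and 1.15% and 0.796% in NCI-H1437, and CYP1A1 lies at 0.543 and 1.09 CPM with BAPTA-AM, while CCNA2 and IFIT3 lie near DPBS.

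Of 19 tested genes of endoplasmic reticulum chaperones and degradation, 11 were lower than with Aeg-S/L and 3 higher, where 20.3% and 17.6% of all genes were. Their median was -0.20, and the changes ran from -1.87 to 0.27. HSPA5, the BiP chaperone, stood at 1186 and 1177 CPM in DPBS, 934 and 937 with Aeg-S/L and 738 and 746.5 with BAPTA-AM. Calcium handling genes were lower in 7 of 16 tested cases and higher in 1. ATP2A2, the pump that fills the endoplasmic reticulum with calcium, fell from 1683 and 1679 CPM to 963 and 966, under its 1361 and 1299 in DPBS, and the plasma membrane pump ATP2B1 fell from 74.6 and 84.2 to 44.8 and 45.7. The calcium sensors STIM1 and STIM2 and the mitochondrial uniporter MCU did not pass the test. Heat shock genes were lower in 6 of 13 cases and higher in 1, DNAJB1 by 1.12 ± 0.05 and HSPB8 by 1.55 ± 0.06, and HSPA8 stood at 0.01 ± 0.05. Of 5 tested metallothionein and zinc export genes, 3 were lower, among them the exporter SLC30A1 by 0.36 ± 0.07.

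Targets of the YAP coactivator were lower in 7 of 10 cases, where 20.3% of all genes were. CCN1 stood at 26.03 and 28.7 CPM in DPBS, 2023 and 2042 with Aeg-S/L and 253 and 258.5 with BAPTA-AM, and CCN2 fell by 2.98 ± 0.18. ANKRD1 was the one that rose, from 3.78 and 2.69 CPM to 9.64 and 9.61. In the plasminogen system, 6 of 9 tested genes were lower. SERPINB2, an inhibitor of urokinase, fell from 473 and 476 CPM to 17.8 and 18.8, under its 44.8 and 49.2 in DPBS. The urokinase receptor PLAUR fell by 1.41 ± 0.07 and stayed 1.03 above DPBS.

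Membrane repair genes, whose proteins reseal or shed damaged membrane, were higher in 6 of 15 cases and lower in 2. Over all genes 17.6% were higher and 20.3% lower, and the list median was 0.11. The ESCRT subunit gene CHMP4B fell by 0.36 ± 0.06 and ANXA1, an annexin, by 0.47 ± 0.05, while PDCD6, the calcium sensor ALG-2, rose by 0.28 ± 0.05. Of 9 tested mucin and goblet cell genes, 1 was higher and 2 were lower, a share called near the 37.9% over all genes. MUC5AC, the gel-forming airway mucin, stood at 1.31 and 1.75 CPM with Aeg-S/L and 2.17 and 3.75 with BAPTA-AM, and MUC5B fell by 0.76 ± 0.26.

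Large increases were rarer and of low level. Of the 15 largest by fitted change, LIME1, a membrane adaptor, stood at 2.89 and 4.05 CPM in DPBS, 0.609 and 0.444 with Aeg-S/L and 5.51 and 4.89 with BAPTA-AM. MAGEE1 stood at 7.83 and 6.39, then 1.25 and 0.887, then 9.97 and 8.27 CPM, and rose by 3.09 ± 0.24 (adjusted p = 3.05e-09). The increase ranked first, ATF6B, rested on 1 library: the BAPTA-AM pair had 0.163 and 9.14 CPM, and without the second library the change was 1.74 (adjusted p = 0.717). The others were UBAP1L, RPL23AP64, PRSS53, GVQW3, SLC25A27, RUSC1-AS1, JMJD7-PLA2G4B, GSPT2 and 4 genes without a symbol. RUSC1-AS1 is annotated on the strand opposite to another gene and JMJD7-PLA2G4B spans its neighbours, and because the library kit does not mark strand and the counting rule for shared reads is not given, their reads may belong to those genes.

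ID1, an inhibitor of differentiation factors that BMP signalling induces, was higher at a high level. It stood at 155 and 152 CPM in DPBS, 68.7 and 66.5 with Aeg-S/L and 343 and 355 with BAPTA-AM, and it rose by 2.37 ± 0.07 (adjusted p = 4.07e-16), a 5.16-fold difference. The BAPTA-AM pair lay above every other library. In a BMP list added after values had been seen, ID1 was the one of 7 that rose, and ID2 and SMAD7 fell by 2.17 and 2.18. Over all genes, 17.6% were higher and 20.3% lower.

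Aeg-S/L with EGTA offered a comparison with a chelator outside the cell, and it shares the Aeg-S/L libraries with the comparison above. Between the BAPTA-AM and EGTA groups, 7637 genes were called (46.6%), 3589 higher (21.9%) and 4048 lower (24.7%) with BAPTA-AM. Among the 200 genes risen with extract, the median against Aeg-S/L was -1.58 with EGTA and -2.11 with BAPTA-AM, and directly between the chelators 119 were lower and 45 higher with BAPTA-AM, with a median of -0.45. Among immediate early factors, 20 of 26 were lower with BAPTA-AM than with EGTA and 1, FOSL1, was higher. NR4A1 stood at 436 and 257 CPM with EGTA against 76.1 and 79.6 with BAPTA-AM.

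The lists differed in which chelator left them higher. ERK feedback genes were more often higher with BAPTA-AM, with 7 of 13 higher and 4 lower, where 21.9% and 24.7% of all genes were. DUSP6 stood at 40.8 and 30.0 CPM with EGTA against 79.6 and 84.8 with BAPTA-AM. IL1B stood at 44.1 and 37.5 CPM with EGTA, against 116 in each BAPTA-AM library. All 19 tested endoplasmic reticulum chaperone genes were lower with BAPTA-AM than with EGTA, and HSPA5 stood at 2867 and 2715 CPM with EGTA. HERPUD1, of the degradation pathway of that organelle, had 557 and 474 CPM with EGTA, 25.9 and 24.8 with BAPTA-AM and 97.0 and 97.4 in DPBS, so the chelators lay on opposite sides of the mock. The EGTA replicates differed more from each other than the other pairs did, with a chi-square per degree of freedom of 15.1.

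In NCI-H1437 cells the same contrast gave 4677 calls of 16904 genes (27.7%), 1957 higher (11.6%) and 2720 lower (16.1%). A test of the difference in the BAPTA-AM effect between the lines called 2047 of 18613 genes (11%), 928 higher (4.99%) and 1119 lower (6.01%) in NCI-H292. The lines were run as separate experiments, so line and experiment cannot be told apart. Immediate early factors were lower in 25 of 25 tested genes in NCI-H1437, with a median of -3.49. KLF4 fell by 5.59 in NCI-H292 and by 2.63 in NCI-H1437, a difference of -3.00 (adjusted p = 3.48e-12).

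IL1A kept its increase in NCI-H292 only in part, as described, and in NCI-H1437 it had means of 0.233 CPM in DPBS, 28.1 with Aeg-S/L and 0.84 with BAPTA-AM. The change there was -5.06, and the difference between lines, 3.29, was called (adjusted p = 8.58e-12). CCL20 went from a mean of 78.7 CPM with Aeg-S/L to 0.184 with BAPTA-AM in NCI-H1437, a change of -8.70, and the difference was 4.41 (adjusted p = 1.13e-06). LIF went the other way, with a change of -0.37 in NCI-H1437 and a difference of -2.11 (adjusted p = 3.18e-11). Of the 17 NF-kB feedback genes, 15 were lower in NCI-H1437, and the difference was called higher in NCI-H292 for 9 and lower for 1. Over all genes, 16.1% were lower in NCI-H1437, and the difference was called higher for 4.99% and lower for 6.01%.

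Mitochondrial transcripts were lower in both lines and further in NCI-H292. All 13 genes were called lower in NCI-H1437, with a median of -1.75, and the difference was called lower in NCI-H292 for all 13. Over all genes, the difference was called lower for 6.01%, and 16.1% were lower in NCI-H1437. MT-CO3 had means of 1871 CPM in DPBS, 3538 with Aeg-S/L and 1067 with BAPTA-AM there. CYP1A1 fell by 5.22 in NCI-H1437, from a mean of 348 CPM to 9.34, while CYP1B1 fell by 0.45, from 743 to 545. Cell cycle genes differed between the lines. The difference was called higher for 7 of 12 replication genes and 7 of 12 mitosis genes, where 4.99% of all genes were. AURKA, for one, had means of 178, 165 and 158 CPM in NCI-H1437 with DPBS, Aeg-S/L and BAPTA-AM (difference 0.97, adjusted p = 1.11e-08). ID1 rose in both lines, by 2.37 in NCI-H292 and 1.01 in NCI-H1437, a difference of 1.32 (adjusted p = 4.5e-09).

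**Figure D5:**
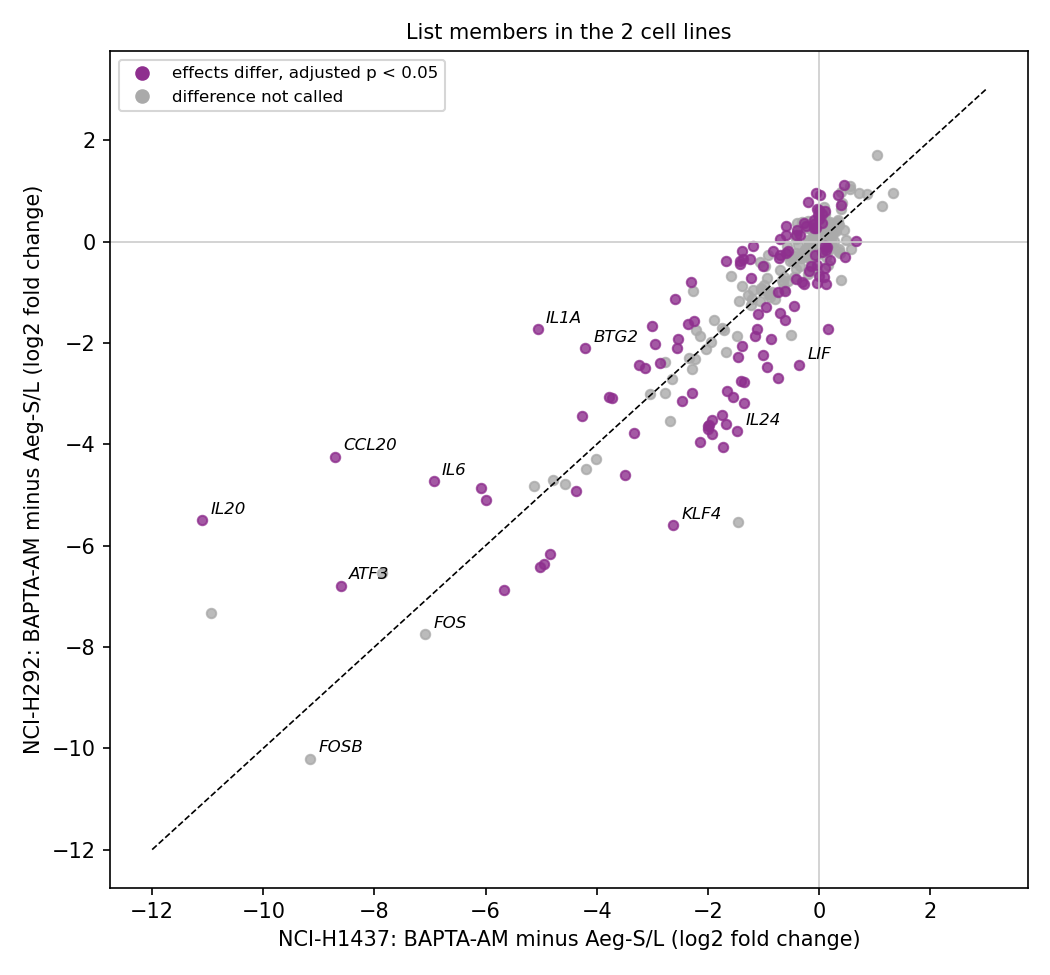
Log2 change with BAPTA-AM against Aeg-S/L alone in NCI-H1437 on the x axis and NCI-H292 on the y axis for 317 list members, with genes whose difference between the lines was called in purple. IL1A and CCL20 lie above the line of equality and KLF4 and MT-CO3 below it. IL20 has 0 counts with BAPTA-AM in NCI-H1437, so its position depends on the prior count of the fit.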

How the data were processed

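RNA-seq libraries of NCI-H292 and NCI-H1437 cells were analysed from the gene count tables that the authors deposited. Per the labels, RNA was prepared with a TIANGEN RNAprep kit and libraries with the NEBNext Ultra RNA kit. Per the submitters' processing notes, HISAT2 2.2.1, SAMtools, featureCounts 2.0.2, DESeq2 1.36.0, R 4.2.2 and hg19 were used, and no source names the strand setting. The values are raw whole-number counts per gene, and 51996 of 57820 gene IDs were matched to a symbol. Of 13 deposited tables, 3 were used.

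Counts were scaled by TMM, filtered with filterByExpr and tested with edgeR 4.0.16 in R 4.3.3 by the quasi-likelihood test, with 1 coefficient per group over the 8 libraries of the experiment. Adjusted p-values (Benjamini-Hochberg) cover all genes tested, and every adjusted p printed comes from edgeR unless DESeq2 is named. The standard error is the log2 fold change divided by the square root of the F statistic. The difference between lines came from a joint fit of 16 libraries. The script was checked on simulated counts. Depth was 32425310 to 38389030 counts a library, and counting intervals are 95%, cover counting error only and do not include variation between cultures.

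The comparison and the gene lists were chosen with earlier results of these data known. Lists named as added were chosen after values had been seen. Named genes are list members, the 15 largest increases and 15 largest decreases among called genes whose groups do not overlap and whose higher group averages 1 CPM or more, and, between lines, the 5 largest differences in each direction. Genes at the ends of the retained range were named after their values were seen. Alternatives were DESeq2 1.42.0, its size factors, no low-count filter, a replicate block, only the 4 libraries compared, other gene sets for the extract response, each library left out, and, added after seeing the data, mitochondrial genes left out before scaling.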

Additional observations from a re-analysis of the deposited data

Results flagged for a closer look

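The BAPTA-AM effect differed between NCI-H292 and NCI-H1437 for the genes below by the test of the difference itself (edgeR, joint fit, adjusted p under 0.05), and each value is the log2 change in NCI-H292 minus that in NCI-H1437. The cell line and the experiment cannot be told apart, and no explanation was tested.

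Among signalling and cytokine genes, the difference was 4.41 for CCL20, 3.29 for IL1A, 2.17 for IL6, 2.06 for the antiproliferative early gene BTG2, -2.11 for LIF, -2.31 for IL24, -3.00 for KLF4 and -3.23 for RRAD. For IL20 it was 5.55 and for GCNA -4.40, and since IL20 had 0 counts with BAPTA-AM in NCI-H1437 and GCNA had 3 counts over the BAPTA-AM pair in NCI-H292, both fitted values depend on the prior count. The metabolic genes CYP1A1, CYP1B1 and MT-CO3 differed by -3.04, -3.01 and -2.37. The antisense gene CYP1B1-AS1 differed by -4.81, a fitted value that also depends on the prior count, since the BAPTA-AM pair in NCI-H292 had 1 count against 29 with Aeg-S/L, and without strand its reads cannot be told apart from those of CYP1B1.

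The fitted values of the next 8 genes rest on 0 to 2 counts in one pair of libraries, so their sizes depend on the prior count and give no order. The difference was fitted at 6.03 for THSD1, 5.89 for ZNF568, 5.68 for CYP2U1 and 5.37 for ADARB2, which had 0 counts with BAPTA-AM in NCI-H1437 against 10, 6, 14 and 9 over the Aeg-S/L pair. In NCI-H292 itself, CYP2U1 and ADARB2 did not pass the test, at -0.16 and 0.16 (edgeR adjusted p = 0.39 and 0.534). It was -5.30 for PCSK5 and -5.88 for SUGCT, which had 0 counts with Aeg-S/L in NCI-H1437 against 6 and 11 with BAPTA-AM. These 6 genes did not pass the count filter in NCI-H1437 alone. It was 4.03 for the leukocyte integrin ITGAM, with 2 counts over the BAPTA-AM pair in NCI-H1437, and -5.89 for DNAH7, with 2 counts over the BAPTA-AM pair in NCI-H292. UBAP1L differed by 2.80, ENSG00000145075 by 2.76 and ENSG00000261490.1 by 3.98, also on few counts. Their Aeg-S/L libraries in NCI-H292 had 0 and 6, 0 and 7, and 2 and 4 counts. ENSGR0000167393.12 differed by -4.72, and its BAPTA-AM libraries in NCI-H1437 had 8 and 94 counts, so the rise in that line rested on 1 library.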

How the results depend on the processing

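With 1 library left out at a time, the count of genes called between BAPTA-AM and Aeg-S/L ranged from 4642 to 4674, in place of 6210, and with DESeq2 it was 5952. The same range was 4318 to 4729 against DPBS, 5321 to 5602 for Aeg-S/L against DPBS, 5945 to 7594 against EGTA and 1343 to 1681 for the difference between lines, where 2047 became 1343 without the second BAPTA-AM library of NCI-H292; these fits have fewer samples. For the extract response, leaving out libraries gave a median of -2.12 to -2.07 over risen genes with 179 to 182 called lower, and 0.477 to 0.503 over fallen genes with 100 to 103 called higher. With the genes chosen in NCI-H1437 the count of fallen genes called higher was 74 in place of 112; the cause was not tested. Same-numbered libraries did not deviate together (correlations from -0.0551 to 0.0362), so the numbers were not taken to pair samples. A replicate block gave 6247, 6073, 7093, 7673 and 2209 calls in the same order. With only the 4 libraries compared in the fit, 7474 genes were called between BAPTA-AM and Aeg-S/L, in place of 6210. Over 82 named genes no direction reversed where the gene was called in the main fit or in the alternative. Sign changes of genes called in neither were not counted. Against Aeg-S/L, 786 of 816 recomputed values kept their side of the threshold and 30 lost the call. Among those that lost it in at least 1 setting were MYC, SPRY4, EPHA2, DUSP4, BIRC3, HMOX1, KRT80, ZNF692, SPRY1 and ATF6B.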
